A study of Homo sapiens with 4 samples.

Results

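The unplaced contig chrUn_gl000220 of the human genome build hg19 carries ribosomal RNA (rRNA) gene sequence in 2 copies. All peaks with this contig as their chromosome were taken from the 4 deposited peak lists, which gave 54 of 4889 peaks. The slow-higher lists held 30 peaks of the contig in pair 1 and 24 in pair 2, and the WT-higher lists held 0 in each pair. Members were therefore chosen by where they were called in the contrast described here, so their counts, folds and pileups are descriptions and carry no test.

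The libraries come from HEK293, a human embryonic kidney cell line, and were made by MeRIP-seq, in which fragmented total RNA is pulled down by an antibody that binds N6-methyladenosine (m6A), that is, adenosine with a methyl group. The 2 Slow libraries are from cells that express a slow-elongating form of RNA polymerase II (RNAPII), given in the labels as an alpha-amanitin mutant. The 2 WT libraries are from HEK293 control cells labelled wild type. Both groups had the same treatment: 24 h in doxycycline (1 µg/ml), followed by 42 h in which alpha-amanitin (2.5 µg/ml), which inhibits RNAPII, was added to it. The labels do not say which promoter drives the transgene, whether a line is a single clone, or whether the replicates were separate cultures. The authors compared Slow1 with WT1 (pair 1) and Slow2 with WT2 (pair 2), with no input library in these calls. A listed peak can hence mark a difference in methylation, in the amount of RNA, or in both, and these cannot be told apart here. The lists hold no expression level, so the cell line could not be checked by marker genes.

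Ribosomal RNA is transcribed by RNA polymerase I as a long precursor, which holds in order an external spacer, 18S, the first internal transcribed spacer (ITS1), 5.8S, the second internal transcribed spacer (ITS2) and 28S. The spacers are removed as the precursor matures, while 18S becomes the RNA of the small ribosomal subunit, and 5.8S and 28S become RNAs of the large one. Human 18S and 28S each carry a known m6A, placed by METTL5 and ZCCHC4. An intergenic spacer separates one repeat from the next. On the contig, the first copy of 18S (RNA18S5) was taken as 109078 to 110946, of 5.8S (RNA5-8S5) as 112025 to 112180 and of 28S (RNA28S5) as 113348 to 118417, and the second copy as the same intervals 43970 bp further on. A RefSeq gene table of GRCh38.p14, used for names only, calls them RNA18SN5, RNA5-8SN5 and RNA28SN5, and lists RNA18SP3 and RNA5-8SP8, both pseudogenes, as the next rRNA entries. No sequence of the contig was used here, so no summit was set against a methylated base.

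Most summits lay within 18S and 28S. In pair 1, 22 of 30 summits fell between the start of 18S and the end of 28S of either copy, and in pair 2, 15 of 24. Of these, 28S held 16 in pair 1 and 11 in pair 2, and 18S held 4 in each pair. ITS1 held 2 in pair 1 and 0 in pair 2. No summit of either pair lay in 5.8S or ITS2, and the sole overlap with ITS2 was that of the first 28S peaks of pair 1, which reached 6 and 7 bp into it. The density in the first copy was 1.78 and 1.18 summits per kb in 28S (pairs 1 and 2) and 1.07 per kb of 18S in each pair. In the second copy it was 1.38 and 0.986 per kb in 28S and again 1.07 per kb of 18S. The 28S densities there assume a full second copy of 5070 bp. Whether the contig holds all of it was not checked, so 28S and 18S cannot be ranked by density in that copy. Peaks covered 65.8% and 44.1% of the first 28S and 76.0% and 43.9% of the first 18S. The other 8 peaks of pair 1 and 9 of pair 2 lay outside the copies, all between them but for 1 peak of pair 1.

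**Figure D1:**
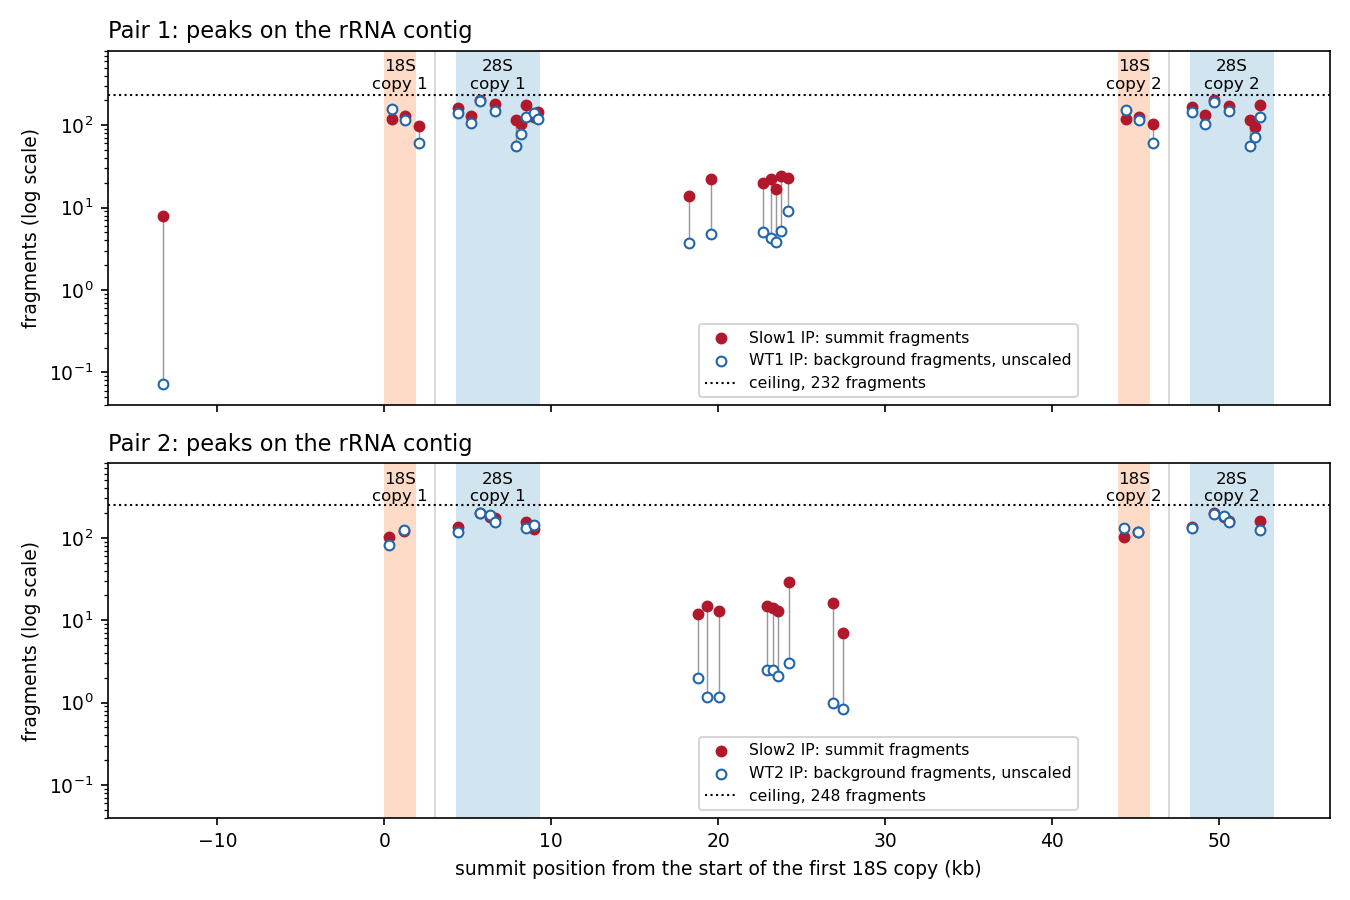
Fragments at the summit in the Slow library (filled points) and in the WT background with scaling undone (open points), on a log axis, by distance of the summit from the first 18S start in kb, for each pair; 18S is shaded orange, 5.8S grey and 28S blue, and the dotted line is the ceiling that duplicate removal sets, 232 and 248 fragments. Points of both libraries lie close together from 18S to 28S, at 94 to 204 Slow fragments in pair 1, and far apart between the copies.

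In what follows the pileup counts the Slow library's extended fragments that cover the summit once duplicates are removed. The WT background is the authors' local background from the WT library. It was computed from pileup and fold, and is given with the scaling undone, as fragments of the WT library itself. The fold is the caller's, (pileup + 1) over (scaled WT background + 1), for 1 library against 1 library. WT libraries were deeper after duplicate removal, by a depth ratio of 2.43 in pair 1 and 2.08 in pair 2 (WT over Slow reads), so a fold equal to the depth ratio means about equal fragments in both libraries before scaling. With scaling undone, the WT background was whole within 0.02 at 17 of 22 peaks from 18S to 28S in pair 1 and at 15 of 15 in pair 2, as a count of fragments would be. Outside the copies it was whole at 2 of 8 and 3 of 9 peaks. A fraction marks a mean over one of the caller's wider windows, and WT fragments at the summit itself may then be fewer.

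In 18S, the RNA of the small subunit, each copy held 2 peaks in each pair, all of which overlapped a peak of the other pair. In the part nearer the 5′ end of the first copy, the summit had 120 Slow fragments against a WT background of 157 in pair 1, a fold of 1.84, and 101 against 82.0 in pair 2, a fold of 2.52. The Slow library thus had fewer fragments than WT before scaling in pair 1 and more in pair 2, at summits 162 bp apart. The second 18S peak had 130 Slow against 114 WT fragments in pair 1 (fold 2.72) and 122 against 123 in pair 2 (fold 2.04). It ran over 1079 bp in pair 1, from 109832 to 110910, and over 690 bp in pair 2, with summits at positions 1244 and 1165 of 18S. In the second copy the 5′ peaks had folds of 1.85 and 1.62, with 118 Slow against 154 WT fragments and 103 against 131. The other 18S peaks of that copy had folds of 2.57 and 2.04. The 5′ peak of pair 2 in the second copy had a −log10 q of 2.11, the lowest of all members and just inside the authors' limit of q 0.01. The lowest values of pair 1 were 5.54 and 5.47, at the same 5′ peaks of the first and second copy.

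In 28S, the large-subunit RNA that forms the centre where peptide bonds are made, 5 joined regions of the first copy and 4 of the second were found in both pairs. Their summits lay 1 to 37 bp apart between the pairs, against 71 to 162 bp for the 4 joined regions of 18S. The highest pileup was at 28S position 1444 in pair 1 and 1443 in pair 2. There the Slow library had 204 fragments against 198 in WT in pair 1, a fold of 2.48, and 200 against 201 in pair 2, a fold of 2.06. These were the highest pileups of all 1884 and 1383 slow-higher peaks, yet the fragments of both libraries were nearly equal in number before scaling. The summits at positions 2340 and 2342 had 179 Slow against 149 WT fragments (fold 2.89) and 172 against 156 (fold 2.27).

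Further towards the 3′ end, a 28S peak from 117463 to 117773 in pair 1 and from 117480 to 117670 in pair 2 had summits at positions 4227 and 4217. It had 177 Slow against 126 WT fragments in pair 1, a fold of 3.37, and 154 against 132 in pair 2, a fold of 2.40. Of the 5 first-copy 28S regions found in both pairs, this one had the highest fold in both. The peak at the 5′ end of 28S had 160 Slow against 140.0 WT fragments (fold 2.75) and 136 against 117 (fold 2.39). The peak nearest the 3′ end among those found in both pairs had 126 Slow fragments in each pair, against 139 and 142 in WT, with folds of 2.18 and 1.83. At this last peak WT had more fragments than Slow before scaling in both pairs. Pair 2 also had a separate summit at position 2066 of 28S, with 177 Slow against 187 WT fragments (fold 1.95), inside the interval of the 1010-bp peak of pair 1.

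Several peaks of the transcribed part were listed in pair 1 only, and these included its highest folds there. They are named after their values were seen. In 28S they lay at positions 902, 3611, 3929 and 4936 of the first copy. At position 3611 the Slow library had 114 fragments against 55.3 in WT, a fold of 4.84. In ITS1, a spacer that is cut out of the precursor, the summit lay 207 bp past the end of 18S, with 98 Slow against 60.1 WT fragments and a fold of 3.85. The other 3 peaks had folds of 2.90 to 3.14. In pair 2 none of the 15 peaks from 18S to 28S had a fold above 2.65. Absence from the list of pair 2 says only that no peak was called at that pair's depth.

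The copies gave nearly the same values. Distances between summits of the copies gathered around a median of 43972 bp in pair 1 and 43974.5 bp in pair 2. Within 30 bp of it, 10 of the 12 first-copy summits of pair 1 had a partner, as did all 10 of the second copy, and in pair 2 it was 6 of 8 and 6 of 7. Matched pileups, first over second copy, had ratios of 0.961 to 1.10 in pair 1 and 0.963 to 1.08 in pair 2. Matched folds had ratios of 0.943 to 1.06 and 0.905 to 1.13. The ITS1 peak, for example, had 98 fragments in the first copy and 102 in the second, with folds of 3.85 and 3.99. The pair 1 peak at position 3611 of 28S had 114 in each. The copies may count the same reads and are not replicates; whether reads were aligned to both was not tested. Without a partner were the 2 first-copy summits of pair 1 and the 1 of pair 2 nearest the 3′ end of 28S. Their partners would lie at 162023, 162255 and 162018.5, and whether the contig extends so far was not checked. The 5′ peaks of 18S in pair 2 missed the expected distance by 58.5 bp, and differed in fold (2.52 in the first copy, 1.62 in the second) with 101 and 103 Slow fragments.

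**Figure D2:**
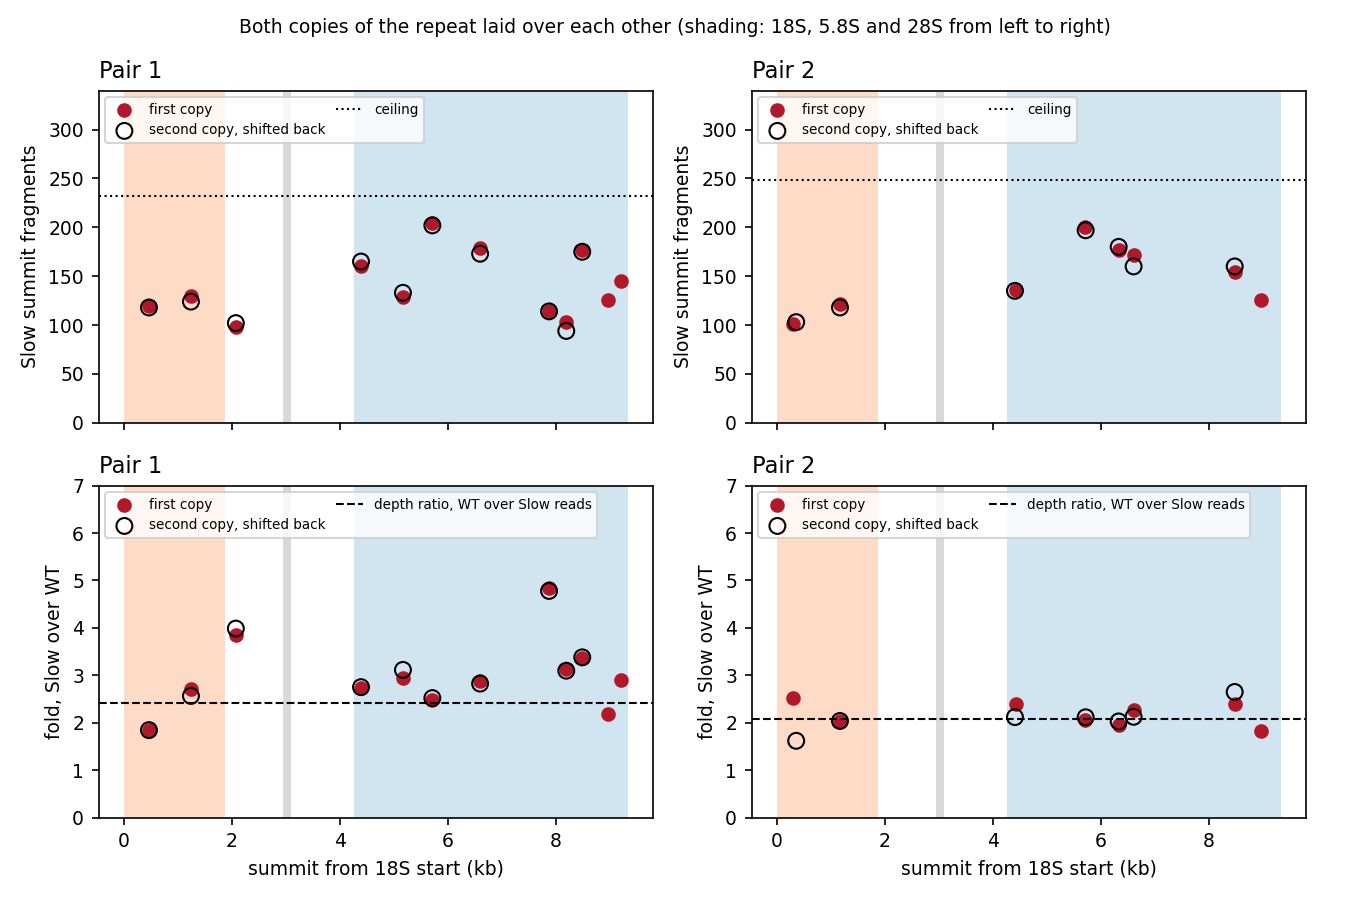
Slow summit fragments (upper panels) and fold, Slow over WT (lower panels), by distance of the summit from the 18S start in kb, for the first copy (filled) and the second copy shifted back by that median distance (open). Open circles ring or adjoin the filled points but for the 5′ peak of 18S in pair 2 (folds of 2.52 and 1.62) and the peaks with no partner, and many folds lie near the dashed depth ratio, 2.43 in pair 1 and 2.08 in pair 2.

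With scaling undone, Slow and WT fragments were close in number from 18S to 28S. The fold divided by the depth ratio had a median of 1.19 in pair 1 (range 0.759 to 1.99) and 1.02 in pair 2 (0.782 to 1.28), a mean of 1.11 ± 0.120 (SD, n = 2). In 18S the medians were 0.909 and 0.983, and in 28S 1.2 and 1.02. Over the whole contig, 27 of 30 peaks in pair 1 and 17 of 24 in pair 2 had a fold above the depth ratio, against 97.9% and 99.1% of all slow-higher peaks. The exceptions in pair 1 were the 5′ peak of 18S in both copies and the 28S peak at position 4704 of the first. In pair 2 they were 3 of the 4 peaks in 18S and 4 of the 11 in 28S. If the libraries were instead scaled by reads before duplicate removal, where WT over Slow is 1.25 and 1.71, the median fold from 18S to 28S would be 1.5 in pair 1, as against 2.89 as deposited, and 1.75 in pair 2, as against 2.12.

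The pileups were high beside the greatest number that duplicate removal allows. At most 1 read was kept per position and strand, so with fragments extended to 116 and 124 bp a summit can hold at most 232 fragments in pair 1 and 248 in pair 2. From 18S to 28S the Slow pileups reached 40.5% to 87.9% of this ceiling in pair 1 and 40.7% to 80.6% in pair 2. The WT background reached 23.8% to 85.3% and 33.1% to 81.0%. At the highest 28S summit, both libraries stood at 87.9% and 85.3% of the ceiling in pair 1 (Slow and WT) and at 80.6% and 81.0% in pair 2. Reads above 1 per position left no trace in these lists, so differences in rRNA abundance beyond it could not be seen, and the share of this limit in the folds was not tested. The headers put redundant reads at 96% and 94% in the Slow libraries and 92% in each WT library, over all chromosomes.

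**Figure D3:**
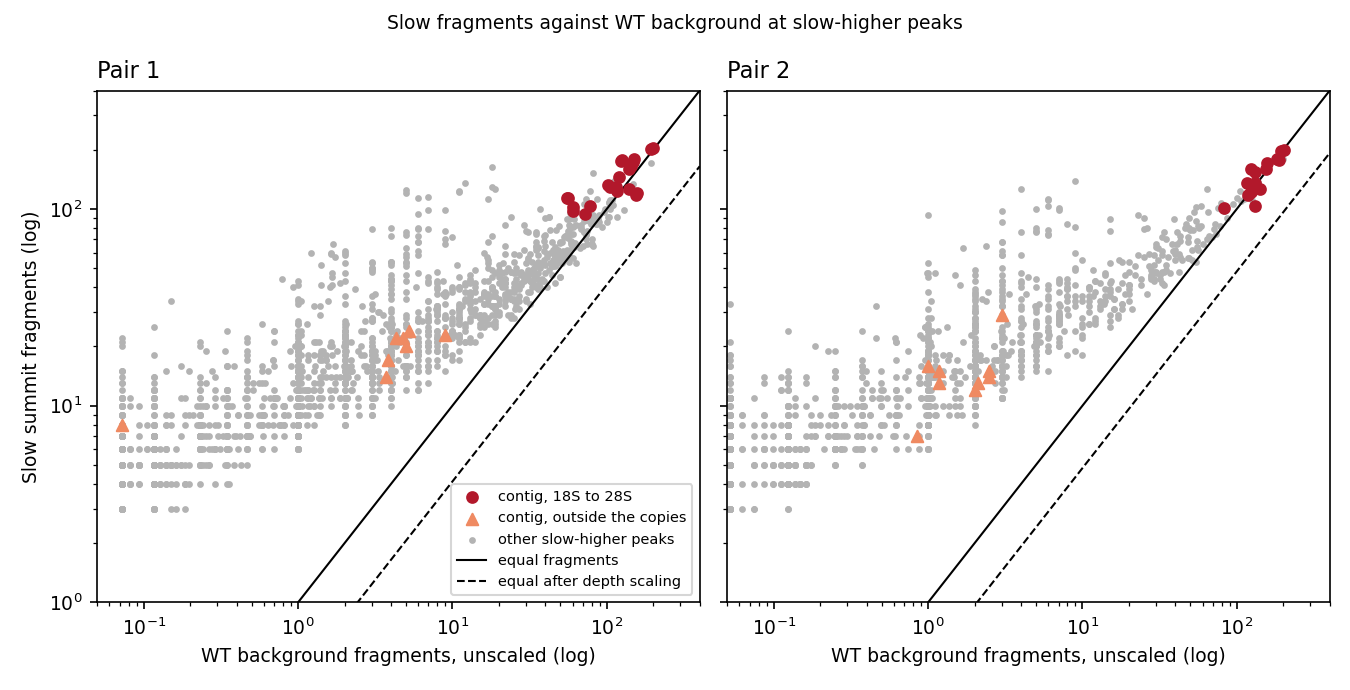
Slow summit fragments against WT background fragments with scaling undone, both on log axes, for all slow-higher peaks of each pair. Peaks from 18S to 28S lie at the upper right around the line of equal fragments, up to 204 against 198, and contig peaks outside the copies lie among the other peaks with few WT fragments.

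Between the copies, in what lies beyond 28S and before the next 18S, the picture differed. Pair 1 had 7 peaks there and pair 2 had 9, from 127180 to 136674, that is 8763 bp past the end of 28S to 16374 bp before the second 18S. Pileups were 14 to 24 fragments in pair 1 and 7 to 29 in pair 2, against WT backgrounds of 3.71 to 9 and 0.843 to 3.00. Folds were 5.10 to 8.31 and 5.69 to 12.3, all above the depth ratio, as were 97.9% and 99.1% of all slow-higher peaks. The median folds of 6.99 and 7.29 were near those of the slow-higher peaks off the contig, 6.66 and 6.83. Pileups were thus lower and folds higher than at every peak from 18S to 28S in the same pair.

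A stretch of 1938 bp, from 131735 to 133672, held all 4 joined regions between the copies that were found in both pairs. In the order of position, the first had 20 Slow fragments against 5.00 in WT in pair 1 (fold 6.87) and 15 against 2.48 in pair 2 (fold 7.29). In the second it was 22 against 4.29 (fold 8.31) and 14 against 2.48 (fold 6.84). The third had 17 against 3.83 (fold 6.99) and 13 against 2.11 (fold 6.95). The fourth joined 2 peaks of pair 1 with 1 of pair 2 and had 24 against 5.22 (fold 7.94) and 29 against 3.00 (fold 12.3). Slow exceeded WT before scaling at all 4 in both pairs, as it did at the other pair 1 peak of the fourth, with 23 against 9 fragments (fold 5.10). Most slow-higher peaks share this, as 97.9% and 99.1% of them had a fold above the depth ratio. The nearest summits of the pairs were 222, 114, 91 and 39 bp apart in the 4 regions. In the fourth, the 39 bp was measured from that other pair 1 peak with a fold of 5.10. The summits with folds of 7.94 and 12.3 were 449 bp apart.

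The other peaks between the copies were found in 1 pair each, 2 in pair 1 and 5 in pair 2. Among them the highest folds were 7.77 in pair 1, at 128628 with 22 Slow against 4.76 WT fragments, and in pair 2 11.5, at 135981 with 16 against 1.00, and 10.2, at 128413 with 15 against 1.18. The lowest −log10 q of this stretch was 3.89, at 136561 in pair 2 with 7 fragments. The 1 peak before the first 18S, found in pair 1 at 95836, had 8 fragments over a scaled WT background of 0.030, which is the genome-wide value, and its fold of 8.74 therefore rests on the pseudocount of 1. One repeat length upstream of the peaks between the copies, from 83369 to 92586, 0 peaks were listed, and whether the contig holds the same sequence there was not checked.

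Reproduction across the pairs was partial. Of the contig's peaks, 18 of 30 in pair 1 (60.0%) and 19 of 24 in pair 2 (79.2%) shared at least 1 bp with a slow-higher peak called in the other pair, beside 44.0% and 63.1% of all slow-higher peaks. The comparison is not like for like. The median length of contig peaks was 220.5 and 273 bp (pairs 1 and 2), against 151 and 163 bp for the other slow-higher peaks. Contig peaks also covered much of 18S and 28S, and long, dense peaks share 1 bp more readily. As matched peaks of both copies may count the same reads, the number of separate peaks is smaller. Without the second copy the shares were 60.0% and 70.6%. All 30 and 24 members were slow-higher, where 67.3% of all listed peaks of pair 1 and 66.2% of pair 2 were, and the rule used this contrast.

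Set against the other 1854 and 1359 slow-higher peaks, contig peaks had higher pileups and lower folds. The median pileup was 119 fragments against 14 in pair 1 and 120 against 11 in pair 2, a log2 difference of 3.27 ± 0.25 (SD, n = 2 pairs, as for the next values). The median fold was 3.13 against 6.66 and 2.39 against 6.83, a log2 difference of −1.30 ± 0.30. Both are descriptions, and no test over 2 pairs could pass a threshold. A low fold passes the q limit only with many fragments, so these differences are not independent of each other. The size of the fold difference depended on how the fold was made, at −3.43 ± 0.67 without the pseudocount and −1.74 ± 0.01 with scaling by reads before duplicate removal. Without the second copy the log2 differences were smaller and varied more between the pairs, at 2.18 ± 1.10 for the pileup and −0.57 ± 0.44 for the fold. The lower fold was that of the peaks from 18S to 28S, with medians of 2.89 and 2.12 (pairs 1 and 2). The 8 and 9 contig peaks outside the copies had median folds of 7.38 and 7.29, above those of the other slow-higher peaks. Their median pileups were 21 and 14 fragments. Peaks of the mitochondrial genome, which like rRNA is not transcribed by RNAPII, had a median pileup of 91 and 77 fragments. Their median fold over depth ratio was 1.02 and 1.34. Whether the polymerase bears on any of these values was not tested.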

How the data were processed

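The members and lists were chosen with earlier results of these data known. The submitters' processing notes name TopHat2 and the build hg19; how reads with several alignments were treated is not given in the sources used here. MACS2 2.1.1.20160309 called the peaks, per the file headers, at q 0.01 on single IP libraries, each pair in both directions, without pooling, with local background windows of 1000 and 10000 bp and 65-bp reads. The deposited values are the pileup (a coverage signal), the fold ratio, and the −log10 of p-values and of q-values; the names of these last 2 columns are missing, and they were told apart by the order in which the caller writes them. At all 3267 slow-higher peaks the −log10 p equalled a Poisson tail of pileup and computed background within 0.05.

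Per the file headers, reads after duplicate removal were 698050 and 547402 in Slow and 1695246 and 1136611 in WT, the larger library being scaled down. The background was multiplied by the depth ratio to undo scaling. Peaks were placed by summit; peaks of the pairs that overlapped were joined, each pair represented by its highest fold. Named peaks were, per region and copy, those found in both pairs, up to 6 by mean fold, and the 2 highest folds per pair among the rest. Overlap and copy matching were run on simulated peaks with a known answer, and all 100 sets were recovered. The overlap case was the same in every set, and each simulated copy summit had a partner well within 30 bp. The check hence covers the code and not the harder cases of these data. Python 3.11.15, pandas 2.3.3, numpy 2.4.6 and scipy 1.17.1 were used. No chromosome sequence was used. The exact two-sided sign-flip test planned for the differences from the other slow-higher peaks cannot give a p under 0.5 with 2 pairs, and is not reported.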

Additional observations from a re-analysis of the deposited data

How the results depend on the processing

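Of 67 alternatives, 60 kept the value within its interval, its spread between pairs or 1.5 times its count, or kept the direction of a log2 difference, none reversed a direction, and 7 moved a value. Counting only peaks that overlap the other pair left 18 of the 30 peaks of pair 1. Placing a peak in each region it touches gave ITS2 2 peaks in pair 1 in place of 0. With 50% reciprocal overlap, 33.3% and 41.7% of the peaks of pairs 1 and 2 were found in the other pair, and with summits within 100 bp 54.2% of pair 2. The shares of all slow-higher peaks under these stricter rules are not given here, so these values cannot be set against them. Outside the copies, the fold divided by the depth ratio had a median of 3.28, which includes the pseudocount. Without the pseudocount, the median ratio of Slow to WT fragments there was 6.41. Leaving out the second copy, chosen after seeing the data, put the median pileup at 29.2% of the ceiling, as against 49.8%, since the peaks between the copies then weigh more. Leaving out either pair gave log2 differences from the other peaks of −1.51 to −1.09 for the fold and 3.09 to 3.45 for the pileup. The fold divided by the depth ratio was then 1.02 to 1.19 from 18S to 28S and 3.04 to 3.51 outside the copies. With 2 pairs this says nothing on stability. No paired analysis was possible because a list gives 1 value per peak for a pair, which cannot be fitted with and without a replicate block; every fold is within a pair. Depth limits the peaks between the copies. The WT background there was whole at 2 of 7 peaks in pair 1 and 3 of 9 in pair 2, where 1 WT fragment more or less changes the fold. At the rest it was a mean over a wider window, in which 1 fragment weighs less.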
